A study of Mus musculus with 9 samples.

Results

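Type 2 myeloid (T2M) cells were set against eosinophil-labelled cells, both sorted from the lungs of mice given interleukin-25 (IL-25). The comparison takes the samples by their titles: 3 arrays of T2M cells and 2 arrays of eosinophils, 5 of the 9 arrays of the series, and covers 18193 genes. All mice were female 4get animals on a BALB/c background, 6 to 8 weeks old. In 4get mice a green fluorescent protein (GFP) reports expression of the Il4 gene, so the reporter itself was part of every sort. Every animal, those behind the comparison cells included, had received 0.5 µg of IL-25 in 50 µL on each of 4 days, and there was no untreated group. T2M cells were gated as CD11b+ and Gr-1mid, F4/80+ and MHCIIlo, IL-5rα- and positive for the reporter (IL-4/GFP+). Eosinophils were gated as CD11b+ and Gr-1hi, F4/80- and MHCIIlo, IL-5rα+ and negative for the reporter (IL-4/GFP-). Each array held amplified RNA of 1 pool from 4 donor mice, so a replicate is a pool and no value belongs to 1 animal. The remaining 4 arrays, of cells labelled macrophages and neutrophils, entered the fit only to estimate the spread.

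Eosinophils mature in bone marrow under IL-5 and the transcription factor GATA1, enter tissue through the eotaxin receptor CCR3, and store cationic proteins such as eosinophil peroxidase and major basic protein. Neutrophils mature under G-CSF, follow CXCR2 ligands, and carry gelatinase, collagenase and lactoferrin in their granules together with receptors for bacterial products and antibody complexes. IL-25 is an epithelial cytokine of type 2 inflammation that acts through IL-17RB and brings IL-4, IL-5 and IL-13 producing cells, and with them eosinophils, into the lung. The question the labels put to this pair is how the IL-4 reporter-positive myeloid cells differ from eosinophils of the same inflamed lung.

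The arrays labelled eosinophils went against their label, and every difference that follows is one between labels. Values are log2 expression, so a difference of 1 is a 2-fold difference, and values of a label are given in the order of its replicates. Over 11 measured eosinophil markers, the mean log2 level was 8.31, 8.53 and 8.63 on the T2M arrays and 6.55 and 6.13 on the eosinophil-labelled arrays. Over 24 neutrophil markers it was 8.26, 9.01 and 9.05 on T2M arrays and 11.16 and 11.70 on eosinophil-labelled arrays, with 8.98 and 7.48 on the arrays labelled neutrophils. The neutrophil list was thus higher on the eosinophil-labelled arrays than on all 7 others. Epx, eosinophil peroxidase, read 5.01 and 5.09 on the eosinophil-labelled arrays, inside the range of 4.34 to 5.75 of the macrophage- and neutrophil-labelled arrays, and 7.01, 7.53 and 7.33 in T2M. Siglecf, a sialic acid receptor of eosinophils and alveolar macrophages, read 10.47 and 9.01 there against 11.35, 10.13 and 10.41 in T2M, so the ranges overlapped. Both eosinophil-labelled arrays showed this, and no fit without them exists. In RNA from sorted pools, fewer cells of a type and less RNA per cell cannot be told apart.

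**Figure D1:**
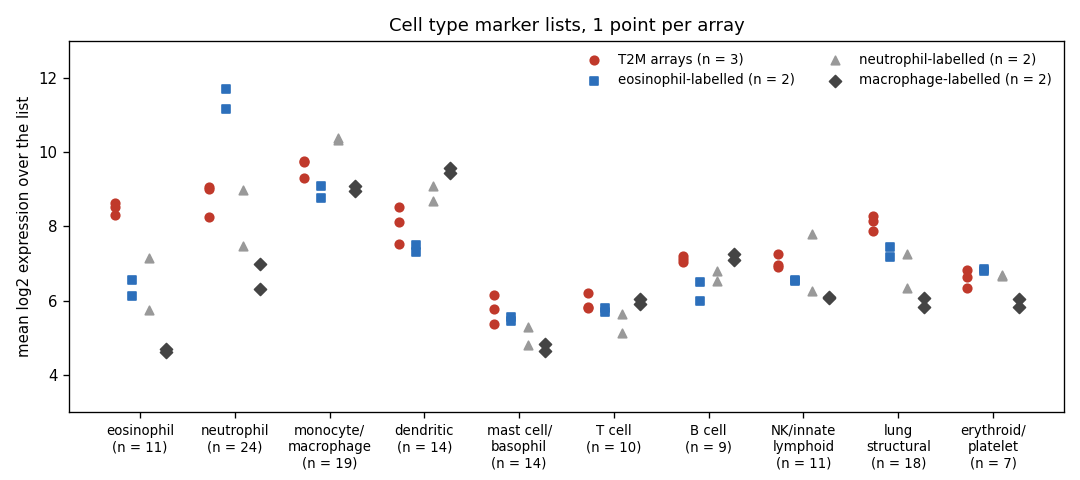
Mean log2 expression over 10 cell type marker lists, 1 point per array, with the number of measured markers under each list. The eosinophil-labelled arrays are highest for neutrophil markers (11.16 and 11.70) and below all 3 T2M arrays for eosinophil markers (6.55 and 6.13 against 8.31 to 8.63).

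Other marker lists differed less. A gene was called where limma, a moderated linear model, gave it an adjusted p below 0.05, as it did for 4.46% of all genes. Of the 11 eosinophil markers 5 were called higher and 0 lower, and of the 24 neutrophil markers 0 higher and 11 lower. Without eosinophil-labelled replicate 2 these counts were 2 and 4, and the eosinophil count was also 2 without T2M replicate 2 or eosinophil-labelled replicate 1 and 1 without T2M replicate 3. Of 19 monocyte and macrophage markers, C1qb and C1qc were called higher and Cd14 lower in T2M, and the list mean was 9.77, 9.74 and 9.29 in T2M against 9.08 and 8.75. All 3 calls ended without T2M replicate 1, T2M replicate 2 or eosinophil-labelled replicate 2. The C1q calls also ended with the macrophage-labelled arrays counted as 1, and the Cd14 call without T2M replicate 3. Of 18 lung epithelial, endothelial and stromal markers, only the surfactant protein gene Sftpd was called, higher in T2M, while the list mean was 8.28, 8.14 and 7.87 in T2M against 7.46 and 7.18. The Sftpd call ended without any 1 of the T2M or eosinophil-labelled arrays and with the macrophage-labelled arrays counted as 1. Of 10 T cell markers, Cd3d, a chain of the T cell receptor complex, was called lower (-1.80, adjusted p = 0.0473), and the call ended without any 1 of the T2M arrays, without eosinophil-labelled replicate 2 and with the macrophage-labelled arrays counted as 1. None of the 14 dendritic cell, 14 mast cell and basophil, 11 natural killer and innate lymphoid, or 7 erythroid and platelet markers passed the test. Their part in the results was not tested. The actin 3′ minus 5′ control difference, a measure of RNA or amplification quality, was 0.61 on T2M replicate 1 and 0.54 on eosinophil-labelled replicate 1 but between -0.10 and 0.03 on the other 7 arrays. The macrophage-labelled arrays, which lend their spread to the fit, correlated at 0.994 over probe sets against 0.915 to 0.970 within other labels, and whether they hold 1 RNA was not tested.

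Of the 18193 genes, 812 were called (4.46%), with p-values adjusted by the Benjamini-Hochberg method. Of these, 286 were higher in T2M (1.57% of genes) and 526 lower (2.89%). The median difference of all genes was 0.06, that of genes called higher 1.79 and that of genes called lower -2.11. All 812 called genes had arrays of the labels that did not overlap, as did 33.5% of all genes. With the macrophage-labelled arrays counted as 1, 101 genes were higher and 282 lower. Without eosinophil-labelled replicate 2 these were 30 and 162, without T2M replicate 2 they were 122 and 273, and without T2M replicate 3 they were 118 and 279.

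**Figure D2:**
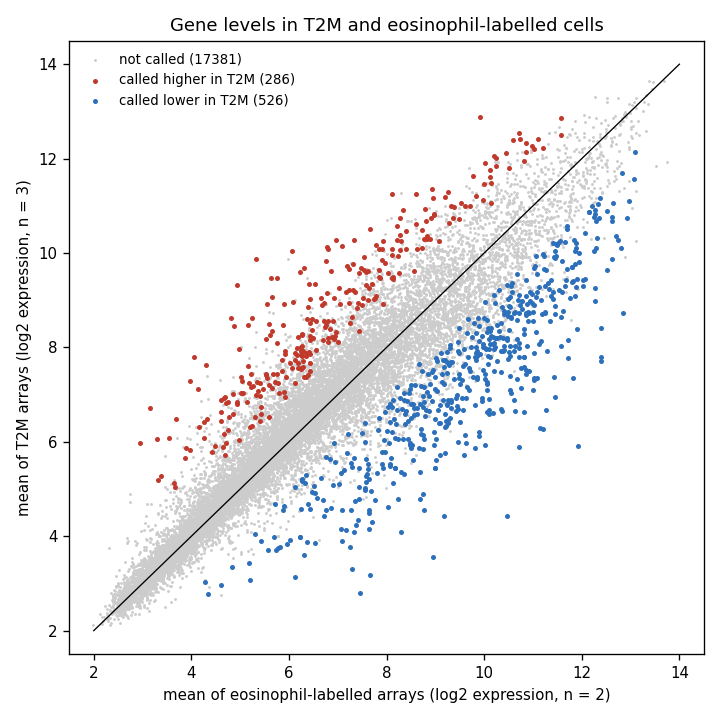
Mean log2 expression of each gene on the 3 T2M arrays (vertical) against the 2 eosinophil-labelled arrays (horizontal), with the line of equal level. The 526 genes called lower in T2M reach further from the line than the 286 called higher, down to -6.04 against up to 4.53.

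A set of 120 genes kept its call and direction under every alternative without a minimum fold that gave it a value, 14 higher and 106 lower in T2M. Of these, 117 had a value under all 21 such alternatives and 3 under 20. The 14 higher were Rnf144b, Gata1, Ikzf2, Bank1, Prkca, Rassf4, Siglecg, Pa2g4, Lpin1 and, named after their values were seen, Acpp, Zfp704, Slc16a9, Anapc5 and Cerk. Rnf144b encodes an E3 ubiquitin ligase. It read 9.79, 8.47 and 9.73 in T2M and 5.70 and 4.18 on eosinophil-labelled arrays, a 21.0-fold difference (log2 4.39, SE 0.52, adjusted p = 0.00512), although 1 of its other probe sets had the opposite sign. Prkca, protein kinase C alpha, had the smallest SE among the 30 largest higher calls, at 8.85, 9.10 and 8.82 against 5.39 and 5.72 (3.37, SE 0.25, adjusted p = 0.00104).

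Ikzf2 and Gata1 were among the 10 largest higher differences. Ikzf2, the zinc finger factor Helios best known from regulatory T cells, read 6.23, 6.39 and 7.51 in T2M and 3.29 and 3.02 on eosinophil-labelled arrays (3.56, SE 0.40, adjusted p = 0.00368). Macrophage- and neutrophil-labelled arrays were as low, between 3.21 and 3.76. Gata1 was at 6.86, 8.39 and 8.12 against 4.31 and 3.78. Ikzf3, the related factor Aiolos, differed by 3.36 (SE 0.74, adjusted p = 0.0439), but its eosinophil-labelled arrays stood apart at 7.17 and 5.29 and its call ended in 10 of 21 alternatives. Bank1, a B cell scaffold protein and a member of the B cell list, read 9.01, 8.74 and 9.46 against 5.70 and 5.59 (3.43, SE 0.40, adjusted p = 0.00467). The other 8 measured B cell markers were not called, Ms4a1 (CD20) giving 1.90 at adjusted p = 0.172.

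Several receptor and membrane protein genes were called higher in T2M. Siglecg, an inhibitory sialic acid receptor of B cells and eosinophils, read 9.76, 10.36 and 10.12 in T2M and 7.05 and 6.54 on eosinophil-labelled arrays (3.29, SE 0.29, adjusted p = 0.00165). Macrophage-labelled arrays were near the T2M level at 9.43 and 9.29. F2r, the thrombin receptor PAR1, was at 11.36, 11.15 and 11.23 against 8.95 and 7.29 (3.13, SE 0.52, adjusted p = 0.0157). The T2M arrays of F2r lay within a narrow range, whereas the eosinophil-labelled pair differed widely. Cd55, which speeds the decay of complement convertases, gave 10.31, 9.26 and 9.96 against 6.98 and 6.55 (3.07, SE 0.53, adjusted p = 0.0174), with means of 5.06 and 4.30 for the macrophage and neutrophil labels. Fgfr1, a fibroblast growth factor receptor, differed by 3.36 (SE 0.48, adjusted p = 0.0093). Tpbg, a membrane glycoprotein, differed by 3.38 (SE 0.59, adjusted p = 0.0188), with 1 probe set of opposite sign. The F2r, Cd55, Fgfr1 and Tpbg calls ended without eosinophil-labelled replicate 2, and those of F2r, Cd55 and Tpbg also without T2M replicate 3.

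Ccr3 had the largest difference on the higher side, with 10.58, 9.20 and 9.82 in T2M and 5.69 and 4.97 on eosinophil-labelled arrays (4.53, SE 0.79, adjusted p = 0.0187). Its call ended without T2M replicate 3 and without either eosinophil-labelled array. Its promoter is shown because it alone among the 4 called eosinophil markers with a promoter sequence (of 5 called) held AGATAA, letters that GATA factors bind, searched on both strands. Promoters here are RefSeq sequence of build GRCm38.p6, from 250 bases before to 50 after the start, and the window shown lies before the start with the match in capitals. It is at chr9:124021921-124021966, plus strand:
Ccr3: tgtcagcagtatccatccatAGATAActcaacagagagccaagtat
AGATAA was held by 9.53% of promoters of genes tested and 11.2% of all promoters in the table. A match describes letters and does not show binding.

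**Figure D3:**
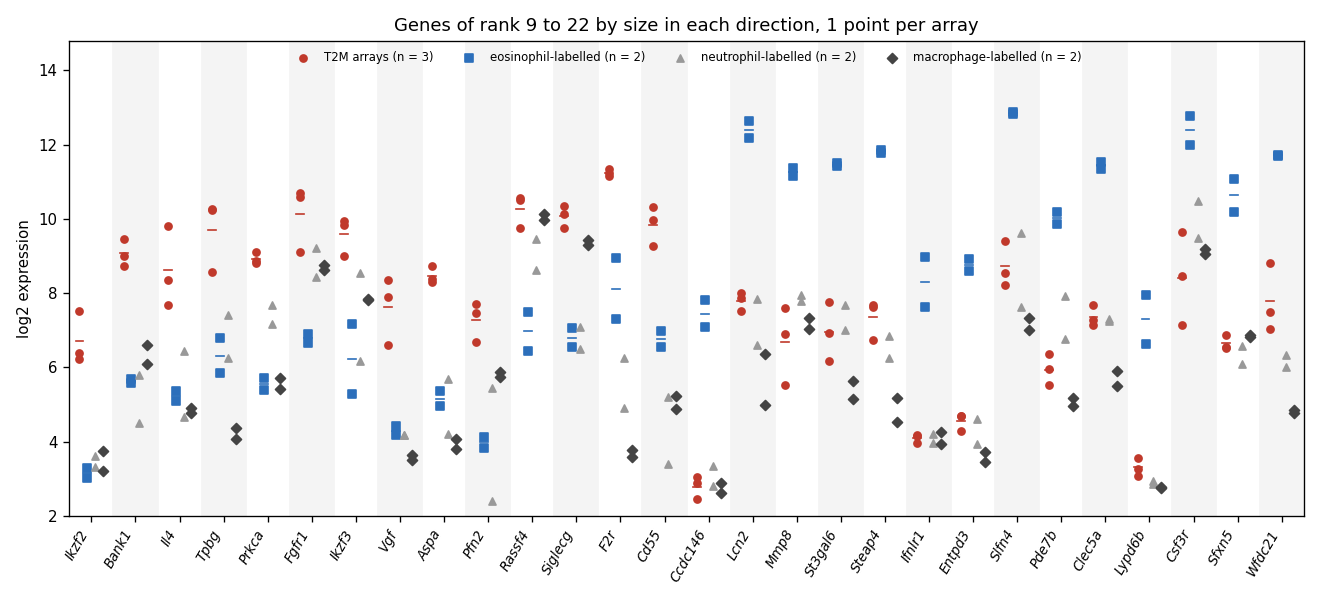
Log2 expression on every array for the genes ranked 9 to 22 by size of difference in each direction, 1 point per array and a bar at each T2M and eosinophil-labelled mean. T2M arrays lie above the eosinophil-labelled arrays for genes from Ikzf2 to Cd55 and below them for genes from Ccdc146 to Wfdc21. Genes were ranked among called genes whose arrays did not overlap.

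On the lower side, several genes were low on all 7 other arrays and high on both eosinophil-labelled arrays. Prps1l1, a phosphoribosyl pyrophosphate synthetase gene known from testis, read 3.17, 4.03 and 3.47 in T2M and 8.58 and 9.34 on eosinophil-labelled arrays (-5.41, SE 0.32, adjusted p = 0.000933), with means of 2.98 and 3.33 for macrophage and neutrophil labels. Ccdc146 was at 2.88, 2.45 and 3.03 against 7.81 and 7.09 (-4.66, SE 0.31, adjusted p = 0.000933). Entpd3, an ectoenzyme that breaks down extracellular nucleotides, gave 4.69, 4.70 and 4.28 against 8.59 and 8.93 (-4.20, SE 0.28, adjusted p = 0.000933). Ifnlr1, the receptor chain specific to type III interferons, was at 3.97, 4.14 and 4.17 against 7.62 and 8.98 (-4.21, SE 0.37, adjusted p = 0.00165). All 4 genes kept their call in every alternative without a minimum fold. St3gal6, a sialyltransferase that builds selectin ligands, differed by -4.51 (SE 0.45, adjusted p = 0.00239), and Pde7b, a cyclic AMP phosphodiesterase, by -4.09 (SE 0.38, adjusted p = 0.00192).

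Of 43 measured interferon-stimulated genes, 19 were called lower in T2M, 0 higher and 24 were not called, against 2.89% of all genes called lower. The list's median difference was -1.75 against 0.06 for all genes. Irf7, the factor that amplifies type I interferon production, read 6.74, 6.97 and 6.92 in T2M and 9.75 and 11.47 on eosinophil-labelled arrays (-3.74, SE 0.44, adjusted p = 0.00481). The T2M arrays of Irf7 were close together and below the macrophage and neutrophil labels, whose means were 8.26 and 8.52. Ifit1, which binds foreign RNA, was at 5.83, 5.13 and 5.90 against 8.42 and 8.66 (-2.92, SE 0.30, adjusted p = 0.00259), with 5.96 and 5.41 as the means of the other labels. Rtp4, a chaperone of membrane receptors, differed by -3.20 (SE 0.43, adjusted p = 0.00731). Among members that did not pass were Irgm1 (-2.09, adjusted p = 0.0975), Irf9 (-2.04, adjusted p = 0.28) and Oas2 (-1.82, adjusted p = 0.0578). The count of 19 became 12 with the macrophage-labelled arrays counted as 1, 12 without T2M replicate 2 or 3, 11 without eosinophil-labelled replicate 1 and 6 without eosinophil-labelled replicate 2. The neutrophil marker mean was also higher on the eosinophil-labelled arrays, 11.16 and 11.70 against 8.26 to 9.05 in T2M, and its part in this result was not tested.

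Promoters of the interferon group are shown with a sequence that was searched because the list holds interferon-stimulated genes. A share above that of all genes was likely for such a list, whatever these arrays show. The letters GAAA, then any 2 bases, then GAAA, the core of the element bound by interferon response factors, were searched on both strands. They were held by 9 of 18 called members with a promoter sequence (50%), by 6 of 15 members not called (40%), by 3.64% of genes tested and by 3.44% of all promoters in the table. Among the other 415 genes called lower with a promoter, 24 (5.78%) held them, and among 227 called higher, 13 (5.73%). The 6 called members with the largest differences and a match before the start are Oas3 on chr5:120777705-120777754 (minus strand), Rsad2 on chr12:26456543-26456592 (minus), Gbp2 on chr3:142620584-142620633 (plus), Ifit1 on chr19:34640784-34640833 (plus), Igtp on chr11:58199502-58199551 (plus) and Trim30a on chr7:104465200-104465249 (minus). Each is printed 5′ to 3′ on the gene's strand with the match, or its reverse complement, in capitals:
Oas3: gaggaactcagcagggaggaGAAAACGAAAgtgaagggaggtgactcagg
Rsad2: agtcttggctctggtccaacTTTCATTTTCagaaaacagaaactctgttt
Gbp2: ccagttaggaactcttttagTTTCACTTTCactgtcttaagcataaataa
Ifit1: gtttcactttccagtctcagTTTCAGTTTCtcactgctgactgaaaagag
Igtp: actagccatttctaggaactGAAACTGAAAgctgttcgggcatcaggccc
Trim30a: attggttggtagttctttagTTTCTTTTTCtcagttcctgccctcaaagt
Ifit1 held 2 matches, of which the one nearer the start is in capitals. The called and uncalled members held the letters at like shares, and a match is no site or cause.

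The genes with a printed match were measured as follows. Oas3, which makes the second messenger of RNase L, read 4.83, 5.42 and 6.07 in T2M and 8.09 and 9.90 on eosinophil-labelled arrays (-3.56, SE 0.54, adjusted p = 0.0113). Rsad2, the antiviral enzyme viperin, was at 7.47, 6.79 and 8.52 against 10.93 and 10.70 (-3.22, SE 0.46, adjusted p = 0.00915). Gbp2, a guanylate-binding protein, gave 8.46, 6.55 and 7.19 against 10.46 and 10.59 (-3.12, SE 0.48, adjusted p = 0.0119). Each of these 3 calls was lost without eosinophil-labelled replicate 2. Igtp, an immunity-related GTPase, differed by -2.39 and Trim30a, a tripartite motif protein, by -1.95. Of 7 Schlafen genes, an interferon-inducible family, Slfn1 (-4.68, SE 0.60, adjusted p = 0.00647) and Slfn4 (-4.11, SE 0.57, adjusted p = 0.00836) were called lower, against 2.89% of all genes. The other 5 did not pass, among them Slfn2, Slfn5 and Slfn9 (-1.81, -0.40 and -0.42). The list median was -0.42 against 0.06 for all genes. Both Schlafen calls ended without eosinophil-labelled replicate 2.

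**Figure D4:**
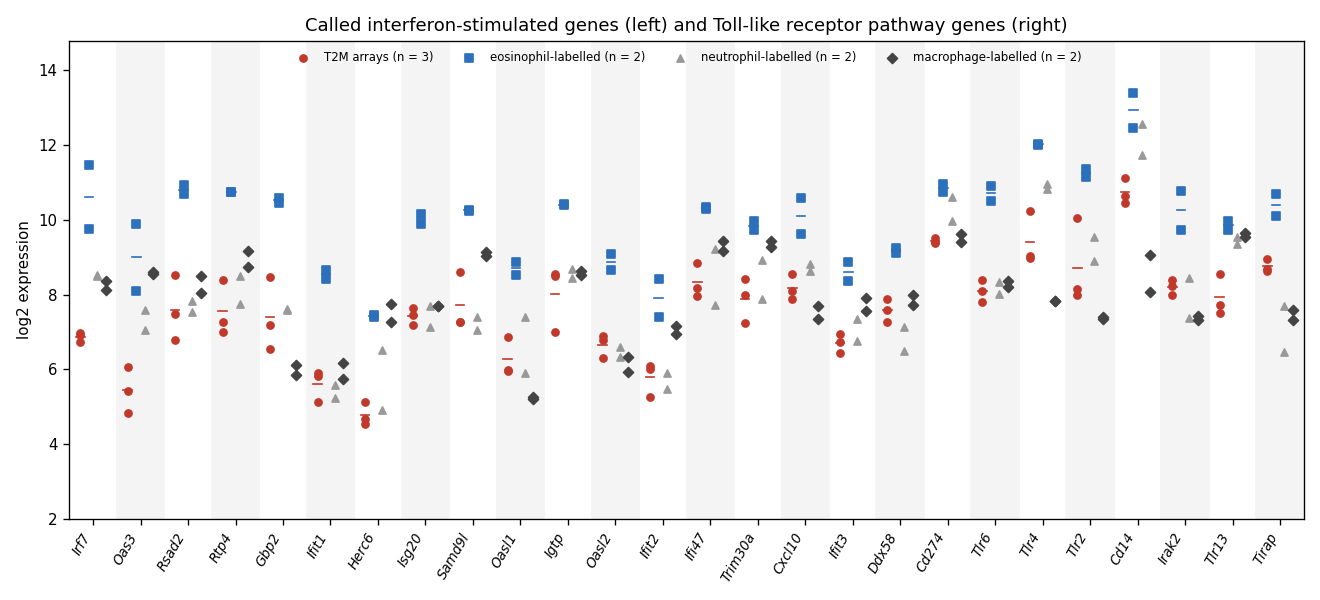
Log2 expression on every array for the 19 interferon-stimulated genes (Irf7 to Cd274) and 7 Toll-like receptor pathway genes (Tlr6 to Tirap) called lower in T2M, 1 point per array and a bar at each T2M and eosinophil-labelled mean. For each gene the 3 T2M arrays lie below both eosinophil-labelled arrays, and no called gene of the comparison had overlapping arrays.

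Of 21 genes of Toll-like receptors, which sense microbes, and their adaptors, 7 were called lower in T2M, 0 higher and 14 were not called. The list median was -1.19, and 2.89% of all genes were called lower. Tlr6, which pairs with TLR2 for lipoproteins, read 8.38, 7.80 and 8.11 in T2M and 10.51 and 10.91 on eosinophil-labelled arrays (-2.61, SE 0.26, adjusted p = 0.00239). Tlr4, the endotoxin receptor, was at 10.24, 8.99 and 9.03 against 12.03 and 12.02 (-2.60, SE 0.37, adjusted p = 0.00915), while its co-receptor Cd14 stood at 10.44, 11.13 and 10.65 against 12.46 and 13.41. T2M replicate 1 had the highest T2M value of Tlr4 and of Tlr2 (10.04 against 7.99 and 8.15 on the other T2M arrays), and Tlr2 was called at adjusted p = 0.0467. Tlr13, a sensor of bacterial ribosomal RNA, and the kinase gene Irak2 differed by -1.93 and -2.06. Tlr1 (-3.07, adjusted p = 0.0534), Tlr8 (-2.34, adjusted p = 0.0621) and the adaptor Myd88 (-1.56, adjusted p = 0.0506) did not pass. Of the 7 calls, 4 were left with the macrophage-labelled arrays counted as 1 or without eosinophil-labelled replicate 1 or T2M replicate 3, 3 without T2M replicate 2, and 1 without eosinophil-labelled replicate 2. The neutrophil marker list differed in the same direction, and its part was not tested.

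C-type lectins, which bind fungal, mycobacterial or self glycans, had 6 of 19 members lower and 1 higher, against 2.89% and 1.57% of all genes. The list median was -0.63. Clec5a, a DAP12-coupled receptor, read 7.69, 7.14 and 7.27 in T2M and 11.34 and 11.53 on eosinophil-labelled arrays, a 16.8-fold difference (-4.07, SE 0.25, adjusted p = 0.000933). Neutrophil-labelled arrays were at the T2M level, 7.25 and 7.30. Clec4n (dectin-2), Clec4d and Clec4e (Mincle) lie in 1 gene cluster and differed by -3.03 (adjusted p = 0.00604), -2.47 (adjusted p = 0.0174) and -1.59 (adjusted p = 0.0232). Clec2d, a ligand of an inhibitory NK receptor, differed by -3.68 (SE 0.59, adjusted p = 0.0138). Clec10a, a galactose-binding lectin of alternatively activated macrophages, was the member that was higher, at 9.15, 8.63 and 7.88 against 6.43 and 6.69 (2.00, SE 0.38, adjusted p = 0.0269). Mrc1, the mannose receptor, read 12.48, 11.61 and 11.29 against 10.54 and 8.83 and did not pass (2.11, adjusted p = 0.0721). The 6 lower calls became 3 without eosinophil-labelled replicate 1 or T2M replicate 2 or 3, and 1 without eosinophil-labelled replicate 2. Clec10a lost its call with the macrophage-labelled arrays counted as 1.

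Paired immunoglobulin-like and Ly49 receptors came in activating and inhibitory forms. Of 23 measured, 7 were lower and 1, Siglecg, higher, against 2.89% and 1.57% of all genes. Klra17, of the Ly49 family, read 6.76, 6.36 and 5.78 in T2M and 11.60 and 10.69 on eosinophil-labelled arrays, a 28.8-fold difference (-4.85, SE 0.42, adjusted p = 0.00164). Sirpb1a, a DAP12-coupled relative of SIRPα, was at 7.24, 7.61 and 7.19 against 10.95 and 11.21 (-3.73, SE 0.27, adjusted p = 0.00104), and macrophage-labelled arrays were at a mean of 10.65. Trem3, which sits beside Trem1, gave 7.10, 6.89 and 7.28 against 10.35 and 10.71 (-3.45, SE 0.26, adjusted p = 0.00104). The T2M arrays of these 3 genes varied by at most 1 log2 unit and lay far below the eosinophil-labelled pair. Klra2 (-2.79, adjusted p = 0.0222) and Treml4 (-2.69, adjusted p = 0.00259) were also lower, and Siglece (-2.68, adjusted p = 0.128) and Trem1 (-1.93, adjusted p = 0.132) did not pass. Klra genes are near-identical copies, so probe sets can read more than 1 of them. Under every alternative that left out an array, 5 to 7 of the family stayed lower and Siglecg stayed higher.

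Of 10 Fc receptor genes, Fcgr4, an activating receptor for IgG2 and IgE complexes, was lower at 8.37, 7.69 and 6.43 against 10.75 and 11.11 (-3.43, SE 0.61, adjusted p = 0.0205), as was Fcrl1 (-1.68, adjusted p = 0.0465). Over all genes, 2.89% were called lower. The common signalling chain Fcer1g (-1.49, adjusted p = 0.0755), the inhibitory Fcgr2b (-0.92, adjusted p = 0.196) and Fcgr1 (0.96, adjusted p = 0.612) did not pass. Both calls ended with the macrophage-labelled arrays counted as 1, without T2M replicate 2 and without either eosinophil-labelled array.

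Genes of the IL-1 family and the inflammasome had 9 of 23 members lower and 0 higher, against 2.89% and 1.57% of all genes. The list median was -1.16. Il1f9, which encodes the alarmin IL-36γ, read 5.22, 6.84 and 5.68 in T2M and 11.54 and 12.28 on eosinophil-labelled arrays, a 64.0-fold difference (-6.00, SE 0.75, adjusted p = 0.00604). Il1r2, the decoy receptor of IL-1, was at 9.26, 8.88 and 8.83 against 12.23 and 12.30, and Il1rap, the shared signalling chain, at 8.58, 8.33 and 8.27 against 11.87 and 11.95. Those pairs were among the tightest of the list. Il18rap, the IL-18 receptor accessory chain, differed by -2.51 (SE 0.29, adjusted p = 0.00467) and its partner Il18r1 by -1.87 without passing (adjusted p = 0.0583). Casp4 encodes caspase-11, the cytosolic endotoxin sensor, and differed by -2.38 (SE 0.31, adjusted p = 0.00678), while the sensor gene Nlrp3 read 9.38, 9.75 and 9.21 against 12.03 and 12.11. Il33, an alarmin of structural cells, was higher on T2M replicate 1 alone (8.95 against 6.13 and 5.73) and did not pass (1.75, adjusted p = 0.383). The 9 calls became 6 in fits without either T2M replicate 2 or 3, without eosinophil-labelled replicate 1 or with the macrophage-labelled arrays counted as 1, and 2 without eosinophil-labelled replicate 2.

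Among 32 other cytokines and growth factors, 6 were lower and 2 higher, against 2.89% and 1.57% of all genes. Il23a, the p19 chain of IL-23, read 5.68, 6.51 and 5.49 in T2M and 11.19 and 10.22 on eosinophil-labelled arrays (-4.81, SE 0.40, adjusted p = 0.00146). Il12a, the p35 chain of IL-12, was at 5.24, 5.53 and 5.55 against 7.85 and 8.49 (-2.73, SE 0.29, adjusted p = 0.00281), and Il15, which sustains NK and memory T cells, at 4.87, 3.87 and 4.73 against 7.84 and 7.44 (-3.15, SE 0.33, adjusted p = 0.00281). For each of the 3, macrophage- and neutrophil-labelled means lay between 4.27 and 5.53, so the eosinophil-labelled arrays alone were high. Tnf was at 7.89, 7.75 and 7.78 against 10.52 and 11.14 (-3.02, SE 0.28, adjusted p = 0.00192), and Tnfsf13b, the B cell survival factor BAFF, differed by -2.52 (adjusted p = 0.0114). Higher in T2M were Il6, at 10.63, 10.06 and 9.73 against 7.76 and 6.40 (3.06, SE 0.60, adjusted p = 0.0288), and Vegfa, at 10.09, 10.51 and 10.13 against 8.26 and 8.34 (1.94, SE 0.30, adjusted p = 0.0117). Neutrophil-labelled arrays were near the T2M level for both genes, with means of 9.22 and 9.92. Il6 and Vegfa lost their calls without eosinophil-labelled replicate 2, Vegfa also without its replicate 1, and Il6 also without any 1 of the T2M arrays or with the macrophage-labelled arrays counted as 1. The reporter gene Il4 (7.69, 9.80 and 8.36 against 5.10 and 5.37) was part of the gates and is no result.

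Of 29 haematopoietic cytokine receptors, 7 were lower and 1 higher in T2M, against 2.89% and 1.57% of all genes. Ifngr1, the ligand-binding chain of the interferon-γ receptor, read 8.85, 8.61 and 8.74 in T2M and 10.58 and 11.12 on eosinophil-labelled arrays (-2.12, SE 0.24, adjusted p = 0.00402), and it was also higher on macrophage- and neutrophil-labelled arrays, at means of 11.10 and 10.53. Tnfrsf1b, the TNF receptor 2 gene, was at 9.96, 10.39 and 10.62 against 12.13 and 12.48 (-1.98, SE 0.25, adjusted p = 0.00647), and the receptor 1 gene Tnfrsf1a gave -1.87 without passing (adjusted p = 0.0662). Il10ra, the IL-10 receptor chain, differed by -2.49 (adjusted p = 0.0384), and Il6ra by -1.51 (adjusted p = 0.0415). Csf3r, the G-CSF receptor and a neutrophil marker, ran from 7.13 to 9.64 in T2M, and differed by -3.98 (SE 0.66, adjusted p = 0.0157). The IL-5 receptor gene Il5ra read 8.05, 7.18 and 7.52 in T2M, sorted as negative, and 5.77 and 4.60 on eosinophil-labelled arrays, sorted as positive (2.40, SE 0.61, adjusted p = 0.0678). Osmr (2.08, adjusted p = 0.0755) did not pass. The 7 lower calls became 4 with the macrophage-labelled arrays counted as 1 or without T2M replicate 2, 3 without T2M replicate 3 and 1 without eosinophil-labelled replicate 2.

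Receptors for peptides, nucleotides and lipid mediators were divided, with 6 of 35 lower and 2 higher, against 2.89% and 1.57% of all genes. Gpr84, which responds to medium-chain fatty acids, read 7.90, 6.76 and 6.64 in T2M and 10.78 and 11.21 on eosinophil-labelled arrays (-3.89, SE 0.38, adjusted p = 0.00235). P2ry13, an ADP receptor, was at 6.73, 6.52 and 6.86 against 10.27 and 10.41 (-3.64, SE 0.45, adjusted p = 0.00604). Ptger2, the EP2 receptor of prostaglandin E2, gave 6.39, 5.34 and 6.24 against 9.71 and 9.20 (-3.47, SE 0.46, adjusted p = 0.00723), and the niacin and butyrate receptor Hcar2, also a neutrophil marker, differed by -2.69 (adjusted p = 0.00604). P2ry14, the UDP-glucose receptor, was higher at 10.54, 9.87 and 10.45 against 8.59 and 6.07 (2.96, SE 0.67, adjusted p = 0.0478). C3ar1, the C3a receptor, was higher at 10.41, 9.37 and 10.49 against 8.22 and 7.46 (2.25, SE 0.39, adjusted p = 0.0175). The nucleotide receptors thus lay on both sides, with P2ry12 (-2.22, adjusted p = 0.217) and P2ry10 (1.97, adjusted p = 0.0803) not called. The receptors Ptgdr2 and Hrh4, which eosinophils use for prostaglandin D2 and histamine, gave 0.08 and -0.01. Both were dim, with a mean below log2 6 under every label, so these differences do not show equal expression. Lower calls numbered 5 to 7 in fits without 1 array, while the 2 higher calls became 0 without T2M replicate 3 or eosinophil-labelled replicate 2.

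Among 34 haematopoietic transcription factors, 3 were lower and 3 higher, against 2.89% and 1.57% of all genes. Beside Gata1 and Ikzf2, Zeb2, a zinc finger repressor of myeloid and dendritic development, was higher at 10.94, 11.83 and 12.13 against 10.32 and 9.22 (1.86, adjusted p = 0.0466), with 1 probe set of opposite sign. Xbp1, which plasma cells and maturing eosinophils need for secretory capacity, was lower at 10.38, 10.20 and 9.40 against 11.78 and 12.09 (-1.94, SE 0.32, adjusted p = 0.0159). Id1, an inhibitor of basic helix-loop-helix factors, differed by -2.78 (adjusted p = 0.0284), and Nfil3 by -1.55 (adjusted p = 0.025). Gfi1, a repressor that granulocyte precursors need, gave -1.51 at adjusted p = 0.0539. All 3 lower calls ended without eosinophil-labelled replicate 2, and Zeb2 lost its call in 13 of 21 alternatives.

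In JAK and STAT signalling, 2 of 23 members were lower and 2 higher, against 2.89% and 1.57% of all genes. Socs2, which restrains growth hormone and cytokine receptors, read 10.85, 10.45 and 10.23 in T2M and 8.13 and 7.21 on eosinophil-labelled arrays (2.84, SE 0.37, adjusted p = 0.00654), and Socs7 differed by 1.46 (adjusted p = 0.0102). Stat4, which carries IL-12 signals, was at 6.04, 5.13 and 5.75 against 7.60 and 7.57 (-1.95, SE 0.32, adjusted p = 0.0149), and Jak2 at 10.35, 10.09 and 10.22 against 12.12 and 11.65 (-1.67, SE 0.30, adjusted p = 0.0217). All 4 calls ended without eosinophil-labelled replicate 2. Of 17 measured NF-κB genes, the kinase gene Ikbke (-2.51, SE 0.33, adjusted p = 0.00678) and the nuclear inhibitor Nfkbid (-1.59, adjusted p = 0.0396) were lower. Nfkbid lost its call with the macrophage-labelled arrays counted as 1, without T2M replicate 1 or 3 and without either eosinophil-labelled array. The subunit gene Rela, at 5.63, 8.04 and 7.83 against 8.46 and 10.23, did not pass (-2.18, adjusted p = 0.179). In the BCL2 and cell death list, Bcl2, which protects cells from apoptosis, was higher at 8.18, 8.64 and 8.38 against 6.71 and 6.97 (1.56, SE 0.25, adjusted p = 0.0126), and Fas (-1.96, adjusted p = 0.0342) and Bid (-1.23, adjusted p = 0.0418), which promote it, were lower. The Bcl2, Fas and Bid calls each ended without either eosinophil-labelled array. In this list 18 of 21 members were not called, and its median was -0.23 against 0.06 for all genes. For the NF-κB and BCL2 lists too, the shares of all genes were 2.89% lower and 1.57% higher. The Fas and Bid calls also ended without T2M replicate 2 or 3 and with the macrophage-labelled arrays counted as 1.

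Of 15 co-stimulatory and checkpoint molecules, 3 were lower and 1 higher, and of 26 adhesion genes, 2 were lower and 1 higher. Over all genes, 2.89% were called lower and 1.57% higher. Havcr2 (TIM-3) was lower at 8.16, 8.35 and 7.99 against 11.67 and 11.76 (-3.55, SE 0.24, adjusted p = 0.000933), and macrophage and neutrophil labels were nearer the higher level, at 10.66 and 10.84. Cd274 (PD-L1) was at 9.38, 9.41 and 9.51 against 10.75 and 10.98 (-1.43, adjusted p = 0.0187), and the tetraspanin gene Cd9 differed by -2.40 (adjusted p = 0.0159). Cd48, a ligand of 2B4, was higher (1.61, adjusted p = 0.0222). Of 26 adhesion genes, Itgb7, the integrin chain of gut-homing leukocytes and eosinophils, was higher at 8.90, 10.04 and 9.99 against 7.97 and 7.73 (1.79, adjusted p = 0.0414), and Cd44 (-1.94, adjusted p = 0.0198) and Icam1 (-1.21, adjusted p = 0.0362) were lower. The Cd274 and Cd9 calls ended without T2M replicate 2 or 3 or eosinophil-labelled replicate 2. Those of Itgb7 and Cd48 ended without T2M replicate 2 or 3 or either eosinophil-labelled array. Those of Cd44 and Icam1 ended without T2M replicate 2 or eosinophil-labelled replicate 2. The Itgb7, Cd44, Icam1, Cd48 and Cd274 calls ended with the macrophage-labelled arrays counted as 1.

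Iron-handling genes had 4 of 19 members lower and 0 higher, with a list median of 0.07 against 0.06 for all genes. Over all genes, 2.89% were called lower. Steap4, a metalloreductase, read 7.64, 6.74 and 7.68 in T2M and 11.86 and 11.78 on eosinophil-labelled arrays (-4.47, SE 0.36, adjusted p = 0.00124). Lcn2, which captures bacterial siderophores and is a neutrophil granule marker, was at 7.51, 7.99 and 7.87 against 12.18 and 12.63 (-4.61, SE 0.48, adjusted p = 0.00272). Slc40a1, the iron exporter ferroportin, differed by -2.84 (adjusted p = 0.0306) and lactoferrin Ltf by -2.89 (adjusted p = 0.0439). Only the first pair kept its calls with the macrophage-labelled arrays counted as 1. Of 26 proteases and inhibitors, Mmp8 was lower at 5.52, 6.90 and 7.59 against 11.17 and 11.36, and Wfdc21, a whey acidic protein gene, at 8.82, 7.03 and 7.50 against 11.70 and 11.71 (-3.93, SE 0.46, adjusted p = 0.00509), while Mmp19 (1.41, adjusted p = 0.0359) and Adam19 (0.92, adjusted p = 0.0444) were higher. The Mmp19 and Adam19 calls ended without T2M replicate 1 or 2, without either eosinophil-labelled array and with the macrophage-labelled arrays counted as 1. Lcn2, Mmp8, Ltf, Camp, Csf3r, Cxcr2 and Trem3 count among the 11 of 24 neutrophil markers called lower, and Padi4, which citrullinates histones in neutrophils, was the 1 measured marker with a positive difference (1.08, adjusted p = 0.664).

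Metabolic genes differed in single members. Lpin1, a phosphatidate phosphatase of triglyceride synthesis, read 8.41, 7.95 and 8.21 in T2M and 5.96 and 5.08 on eosinophil-labelled arrays (2.67, SE 0.34, adjusted p = 0.00604), and Fads1, the fatty acid delta-5 desaturase, differed by 2.34 (adjusted p = 0.0418). They were the 2 called of 22 cholesterol and fatty acid genes, against 4.46% of all genes. The list median was 0.66, and Scd1 (1.52, adjusted p = 0.0656) did not pass. Alox15, which oxidises arachidonic and linoleic acid and marks eosinophils, was at 12.72, 12.97 and 12.95 against 10.90 and 8.91 (2.97, SE 0.50, adjusted p = 0.0159). Ggt5, which converts leukotriene C4 to D4, was lower (-2.70, SE 0.33, adjusted p = 0.00539), and Ltc4s (-1.23, adjusted p = 0.194) was not called. In retinoic acid metabolism the degrading enzyme gene Cyp26a1 was higher at 7.20, 9.27 and 8.92 against 5.38 and 4.38 (3.58, SE 0.78, adjusted p = 0.0416), and Rdh12, a retinol dehydrogenase, lower at 7.43, 7.53 and 8.45 against 11.11 and 10.51 (-3.00, SE 0.47, adjusted p = 0.0125). The synthesising enzymes Aldh1a1 (1.40) and Aldh1a2 (1.39) did not pass, at adjusted p of 0.35 and 0.26. Among 29 glycolysis and hypoxia genes, the prolyl hydroxylase Egln3 (-1.96, adjusted p = 0.0225) and the glucose transporter Slc2a1 (-1.14, adjusted p = 0.0481) were lower. Vegfa, also a cytokine gene of this report, was higher (1.94). The shares of all genes were 2.89% lower and 1.57% higher, and the list median was -0.23 against 0.06 for all genes. Fads1, Cyp26a1, Egln3 and Slc2a1 lost their calls with the macrophage-labelled arrays counted as 1. The same 4 genes lost them without T2M replicate 2 or 3 or eosinophil-labelled replicate 2, and Fads1 also without T2M replicate 1. Alox15 lost its call without T2M replicate 2 or 3, and Cyp26a1 and Rdh12 lost theirs without either eosinophil-labelled array.

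Endoplasmic reticulum genes had 4 of 49 members higher and 1, Xbp1, lower, against 1.57% and 2.89% of all genes. Selenom, a selenoprotein of that compartment, read 8.39, 11.21 and 10.55 in T2M and 6.44 and 5.69 on eosinophil-labelled arrays (3.98, SE 0.72, adjusted p = 0.0219), and the calcium-binding Rcn1 was at 10.11, 9.10 and 9.21 against 6.91 and 4.58 (3.73, SE 0.62, adjusted p = 0.0157). T2M replicate 1 of Selenom stood well below the other T2M arrays. The disulfide isomerase Pdia3 and its oxidase Ero1a differed by 1.36 and 1.37. These 4 calls became 1 with the macrophage-labelled arrays counted as 1 or without T2M replicate 2, 2 without T2M replicate 3 or eosinophil-labelled replicate 1, and 0 without eosinophil-labelled replicate 2. Of 47 cytosolic ribosomal protein genes, 6 were higher and 0 lower, with a median of 0.58, and 1.57% of all genes were called higher. Rpl4 read 12.84, 12.48 and 12.29 against 11.07 and 10.34 (1.83, SE 0.28, adjusted p = 0.0114), but Rps9 (6.91, 10.85 and 10.10 against 9.84 and 12.27) and Rps14 were lower on replicate 1 of each label than on its other arrays, and replicate 1 was the array of each label with a raised actin 3′ minus 5′ difference. Ribosomal calls became 1 with the macrophage-labelled arrays counted as 1 or without T2M replicate 2, 2 without T2M replicate 3, 3 without eosinophil-labelled replicate 1 and 0 without its replicate 2. Ribosomal protein genes have many near-identical processed copies, so their probe sets can be shared.

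Several groups gave no more calls than genes at large. Of 75 mitochondrial ribosomal genes 2 were called, of 81 respiratory chain genes 3, of 47 proteasome genes 1, of 30 cathepsin and lysosome genes 1 and of 14 glycogen genes 0, against 4.46% of all genes. Ctsh, cathepsin H, was the lysosomal gene called, at 10.76, 11.38 and 11.33 in T2M against 9.10 and 8.80 (2.21, SE 0.30, adjusted p = 0.00752). Of 17 resistin-like, chitinase-like, arginase and eotaxin genes, the arginine transporter gene Slc7a2 was called higher (1.82, adjusted p = 0.039), a call that ended without T2M replicate 1 or 2, without eosinophil-labelled replicate 2 and with the macrophage-labelled arrays counted as 1. Arg1, arginase 1, read 10.02, 10.38 and 9.88 against 9.03 and 9.01 without passing (1.08, adjusted p = 0.0789). Of 12 S100 genes none passed, and S100a8 read 11.90, 12.19 and 11.68 against 13.64 and 13.86 (-1.83, adjusted p = 0.388). Of 24 oxidase and antioxidant genes, Epx alone was called.

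**Figure D5:**
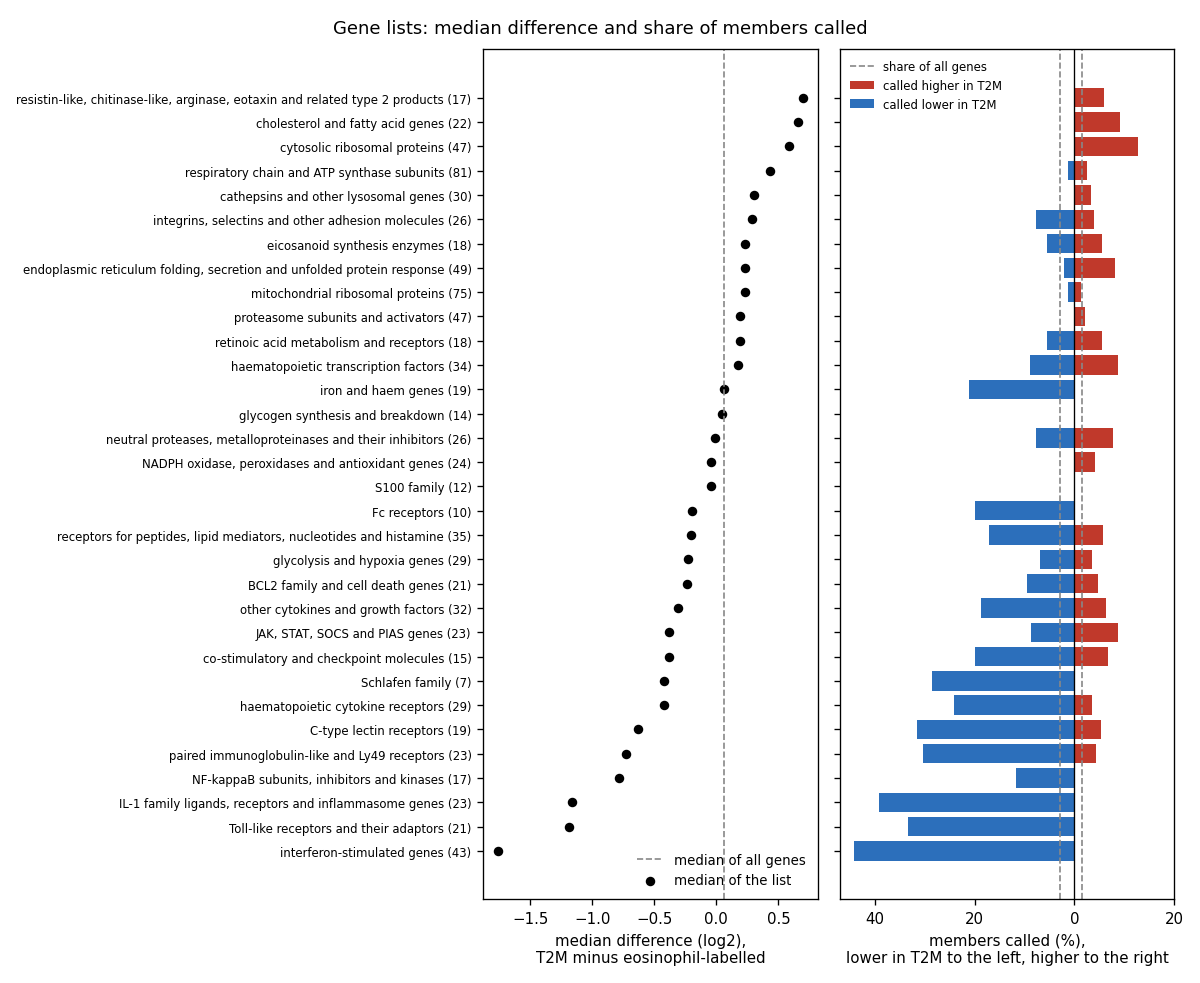
Median log2 difference (left) and share of members called (right) for 32 gene lists, with the number of measured members in brackets and dashed lines at the values of all genes. Interferon-stimulated genes have the lowest median (-1.75) and 19 of 43 members called lower.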

How the data were processed

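RNA of sorted lung cells was hybridised to 9 Affymetrix mouse arrays after Ovation amplification from 50 ng. The authors deposited log2 expression values per probe set, made with RMA, affy and limma per the submitters' processing notes; settings and versions are not given in the sources used here. The 45101 probe sets included 64 controls, which were left out. The platform annotation gave 34945 probe sets 1 symbol, 932 several and 9160 none. Each gene was represented by its brightest probe set over the 9 arrays among those with 1 symbol (18193 genes).

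Label means were fitted with limma 3.58.1 in R 4.3.3 on all 9 arrays (contrast T2M minus eosinophil-labelled, eBayes, two-sided, 5 residual degrees of freedom), with Benjamini-Hochberg adjustment over all genes and calls at 0.05. The number of arrays limits the precision (median SE 0.308), and p-values measure the spread between arrays of a label, pooled over all labels. Whether the macrophage-labelled pair gives a spread between pools was not tested. The script was tested on simulated data of 18193 genes, 200 of them changed. Simulated arrays of a gene were independent and had equal spread, which was not shown for the real arrays, so the rates may not hold for them. The script called 0% of changes of log2 1 and 52% of changes of log2 2, with 3 false calls. A gene that did not pass can therefore still differ. The comparison, the 42 gene lists and the rules were chosen with earlier results of these data known. Named genes are, for each direction, the 30 called genes that differed most among those whose arrays did not overlap, up to 6 called and 3 uncalled members of each list, all eosinophil and neutrophil markers, and genes of the gates. An older name stood in for a listed gene only where it was no current symbol of another gene. Members absent from the table were not analysed here, and lists were described by counts and medians, with no test. RefSeq promoters (GRCm38.p6) were searched on both strands for 3 motifs, and interferon-stimulated genes with a printed window were named with them. Alternatives numbered 22, of which 2 (the macrophage-labelled arrays averaged, and both replicate 1 arrays left out) were chosen after seeing the data. Figures used matplotlib 3.10.9.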

Additional observations from a re-analysis of the deposited data

How the results depend on the processing

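Of 6022 values of single named genes under the alternatives, 5003 kept their direction and side of the threshold, 729 lost and 278 gained a call, and 12 changed sign without being called. The 5003 include uncalled genes that stayed uncalled. Of 287 named genes 155 were called, 46 of them under every alternative without a minimum fold. Leaving out either macrophage-labelled array or averaging them gave the same counts, as did leaving out either neutrophil-labelled array, so tallies over alternatives hold repeats. The counts of genes higher and lower, 286 and 526, were 562 and 864 with array weights, 108 and 289 with the 5 arrays alone, 755 and 928 with the actin difference as a covariate, 6 and 75 with a minimum fold of 2, and 101 and 282 with the macrophage-labelled arrays averaged. Leaving out 1 array gave 30 to 501 higher and 162 to 710 lower. Of the 812 genes, 352 were also called with the 5 arrays alone and 381 with the macrophage-labelled arrays averaged. The share of calls that were lower was 64.8%, 75.8% with a common median, 92.6% with a minimum fold of 2 and 84.4% without eosinophil-labelled replicate 2. A common median shifted the median of all genes from 0.06 to -0.09. The causes were not tested. With the replicate number as a block, 95 genes were higher and 265 lower. The labels state no pairing, and same-numbered T2M and eosinophil-labelled arrays deviated together at r = 0.498 and 0.437 over genes, against -0.18 to 0.05 for other labels, so the block is given as an alternative only. The sign changes were in 4 genes near 0 or of wide spread. Ptgdr2 was -0.069 with a common median, -0.088 with quantile normalization and -0.32 without both replicate 1 arrays, and -0.40 to 0.55 without 1 array. Hrh4 was 0.059 with array weights and 0.26 without both replicate 1 arrays, and -0.15 to 0.13 without 1 array. Pglyrp1 ranged from -1.63 to 0.35 and Socs1 from -2.63 to 0.27 without 1 array.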

Other observations

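The letters TTGCNNAA, searched on both strands and bound by C/EBP factors, were held by the promoters of 3 of 8 neutrophil markers called lower (Mmp8, Ltf and Lcn2), by 10.8% of genes tested and by 14.1% of genes called higher. The letters AGATAA were held by 7 of 18 interferon-stimulated genes called lower (38.9%) and by 1 of 15 not called (6.67%), against 9.53% of genes tested; no test was made. Neutrophil-labelled replicate 2 correlated at 0.954 with macrophage-labelled replicate 1 and at 0.915 with the other neutrophil-labelled array, over all probe sets. T2M replicate 1 correlated at 0.924 with eosinophil-labelled replicate 1 and at 0.932 and 0.934 with the other T2M arrays.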
